A study of Mus musculus with 2 samples.

Results

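The genes described here are the matrix metalloproteinases (Mmp), the ADAM and ADAMTS proteases, the ADAMTS-like proteins and the tissue inhibitors of metalloproteinases (Timp). They were chosen by symbol alone, as every gene listed as Mmp, Timp or Adam with a number or starting with Adamts, other than Mmp7. There were 83 such genes among the 23358 genes listed. Ileum RNA was sequenced from BALB/c mice, 21 days old, of group D and group E. Both groups were injected with 0.1 ml of saline and received 0.2 ml of castor oil, which causes diarrhea. After 0.5 h, group D was given 0.3 ml of saline by mouth, and group E 0.3 ml of ellagic acid (EA, a plant polyphenol) at 10 mg/ml, once a day for 3 days. Every value therefore belongs to an ileum after castor oil, and healthy mice were not analysed here. The study names 2 libraries for each group, and the deposited table joins them into 1 value. How they were joined, and how many mice gave a library, is not stated. The values thus have no SD, no test was possible, and nothing here was checked against the spread between mice.

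Most of these enzymes belong to the metzincins, proteases that hold a zinc ion in the active site. MMPs are made as inactive precursors and cut collagens and other proteins of the extracellular matrix, and TIMPs bind and block them. ADAMs sit in the membrane and shed growth factors, cytokines and receptors from the cell surface, while ADAMTS proteins are secreted and act on proteoglycans, procollagens and other matrix proteins. In the gut wall MMPs and TIMPs come mainly from stromal and immune cells, and ADAM10 and ADAM17 are also made by the epithelium.

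Values are FPKM (fragments per kilobase of transcript with library size scaled out), which is scaled by length and can be compared between genes. A change is log2 of the FPKM in group E over that in group D, with no pseudocount. Changes past 2-fold were counted only where neither value was 0 and their mean reached 1 FPKM. This minimum was met by 37 of the 83 genes. Of all 12694 genes that met it, 368 lay past 2-fold, a background of 2.90%, with 1.59% higher and 1.31% lower in group E. All 10 markers of ileal epithelium were listed above 1 FPKM in both groups. Of these 5 had a log2 change above 0 and 5 below 0, and 1 lay past 2-fold, Lct (lactase), at 3.59 FPKM in D against 18.4 FPKM in E. The bile acid carrier Fabp6 was at 5698 FPKM and 3846 FPKM. The housekeeping gene Gapdh was listed at 0.120 FPKM and 2.98 FPKM, so a value near 0 can be a failed estimate. Among 275 genes under 0.05 FPKM in both groups, 82.5% had values in steps of whole fragments (within 0.3%), and 1 fragment weighed 1.33 times as much in group E as in group D. Values near 0 therefore rest on few fragments.

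The metalloproteinase genes were listed at nearly the same level in both groups. Of the 37 genes above the minimum, 1 lay past 2-fold, or 2.70% against the background of 2.90%, a share close to the background. This gene was Timp4, which was higher in group E. Its mean of 1.62 FPKM met the minimum only through group E, since it was at 0.440 FPKM in group D. The median log2 change was 0.02 over the 37 genes and 0.01 over all 12694 genes, and the median size of the change without its sign was 0.23 against 0.20. There were 20 changes above 0 and 17 below 0. These signs depend on the scaling. Rescaling both groups to equal sums without short and ribosomal RNA genes shifted every log2 change down by 0.35. Of the 37 changes, 6 were then above 0 and 31 below 0, with a median of -0.33, against -0.34 over all genes. A change within 1.2-fold was found for 20 of 37 genes (54.1%), compared with 61.4% of all genes. Within 1.5-fold lay 33 genes (89.2%), compared with 89.8% of all genes. The 4 genes past 1.5-fold were Timp4, which was higher in group E, and Mmp13, Adamts8 and Adam1a, which were lower. The background past 1.5-fold was 10.2%, with 5.03% higher and 5.19% lower. In whole tissue, fewer cells of a type and less RNA per cell cannot be told apart.

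**Figure D1:**
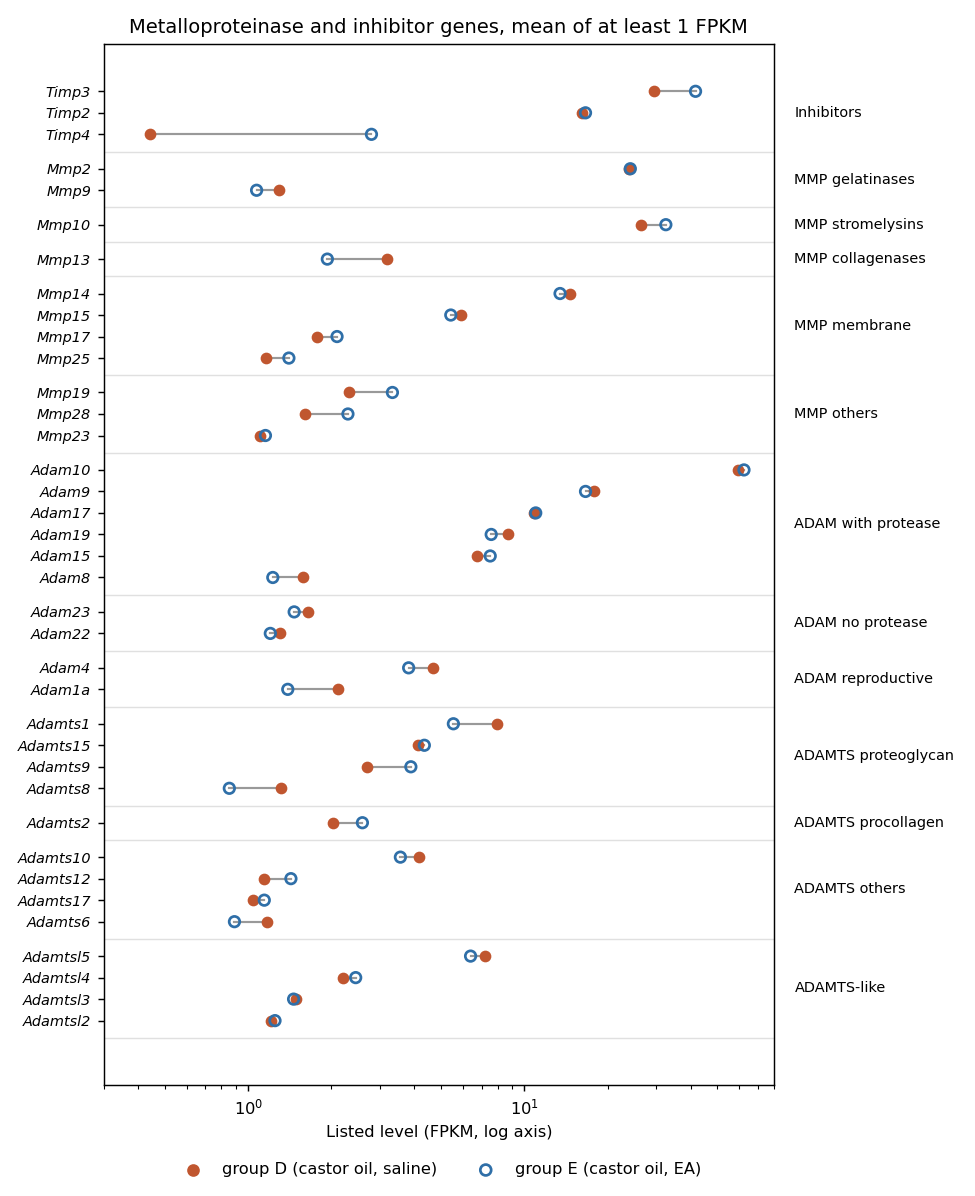
Listed level in FPKM (horizontal log axis) of the 37 genes with a mean of at least 1 FPKM, by role, in group D (filled) and group E (open), with 1 value per group and no error bars. For most genes the circles touch or lie close together, and Timp4 has the longest line, from 0.440 FPKM to 2.79 FPKM.

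A few genes made up most of the summed level. The 83 genes together were listed at 294 FPKM in D against 311 FPKM in E. Adam10 alone held 20.3% of this sum in D against 20.0% in E, and the 5 most abundant genes (Adam10, Timp3, Mmp10, Mmp2 and Adam9) held 53.4% and 57.0%. By family, the 22 Mmp genes summed to 86.0 FPKM in D against 92.1 FPKM in E. The 4 Timp genes summed to 46.4 FPKM and 61.7 FPKM, and the 33 Adam genes to 118 FPKM and 116 FPKM. The 19 Adamts genes summed to 31.0 FPKM and 28.9 FPKM, and the 5 Adamts-like genes to 12.9 FPKM and 12.4 FPKM. Summed Timp levels were thus 0.540 times the summed Mmp levels in group D and 0.670 times in group E, and most of this difference lay in Timp3.

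**Figure D2:**
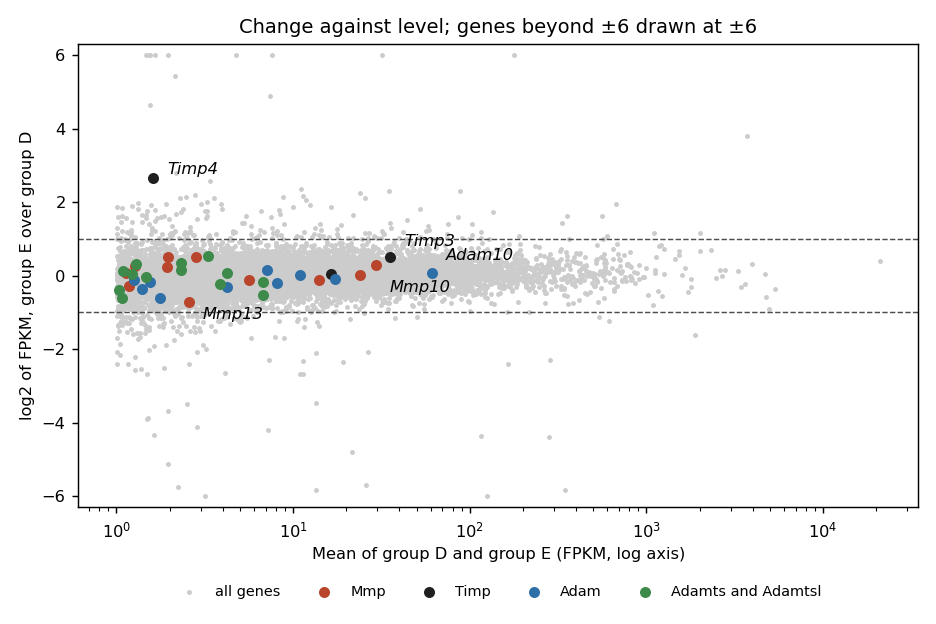
log2 change (group E over group D, vertical axis) against the mean level in FPKM (horizontal log axis) for all 12694 genes (grey) and the 37 genes described here (coloured by family). Dashed lines mark a 2-fold change, and Timp4 is the one coloured point outside them.

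Among the inhibitors, Timp3 was the most abundant, at 29.4 FPKM in D against 41.7 FPKM in E (log2 change 0.50). Timp3 stays bound to the matrix and also inhibits ADAM17 and several ADAMTS enzymes. Timp2, which both blocks MMPs and helps MMP14 to activate MMP2, was at 16.2 FPKM and 16.6 FPKM (0.04). Timp4 was listed at 0.440 FPKM in D against 2.79 FPKM in E, a 6.34-fold difference (log2 change 2.67). Timp1, an inhibitor induced by inflammation, was low in both groups, at 0.424 FPKM and 0.563 FPKM. The ratio of the Timp1 values is that of equal numbers of fragments in both groups, but how many fragments is not known. Timp3 and Timp2 stood far above Timp4 and Timp1 in either group, and only Timp4 lay past 2-fold.

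Timp1, Timp3 and Timp4 each lie inside a synapsin gene on the opposite strand (GENCODE M21, GRCm38). Timp4 spans 115241892 to 115252205 on the minus strand of chromosome 6, inside Syn2, which spans 115134902 to 115282006. In the deposited table both carry 1 shared position, from 115134902 to 115282626. Syn2 was listed at 1.52 FPKM in D against 2.05 FPKM in E, and its log2 change was 0.43, far below that of Timp4. Syn1, around Timp1, was at 1.10 FPKM and 1.41 FPKM, and Syn3, around Timp3, at 1.45 FPKM and 1.30 FPKM. Of the Timp4 and Timp3 exons 1 each overlaps an exon of the synapsin gene. The library kit marks strand, but whether counting used it was stated in none of the sources used here, so reads of overlapping genes may be shared.

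Timp4 is known for its expression in heart and fat tissue, and fat cell markers were listed at very different levels in both groups. Of 9 fat cell markers, Cfd, Retn and Lep had a listed level of 0 in D, against 274 FPKM, 53.4 FPKM and 1.53 FPKM in E. Of the 6 others, Adipoq, Plin1, Cidec and Car3 lay past 2-fold higher, Fabp4 lay past 2-fold lower and Lipe did not pass. Adipoq (adiponectin) was at 0.120 FPKM and 63.4 FPKM. The first is the same value as listed for Gapdh in group D. The reason was not tested, and either value may be in error. Plin1 was at 0.0495 FPKM and 15.2 FPKM, and Car3 at 0.0310 FPKM and 356 FPKM. The 9 markers summed to 599 FPKM in D against 911 FPKM in E, with Fabp4 at 536 FPKM in D against 25.6 FPKM in E. The part of fat cells in the Timp4 value was not tested.

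**Figure D3:**
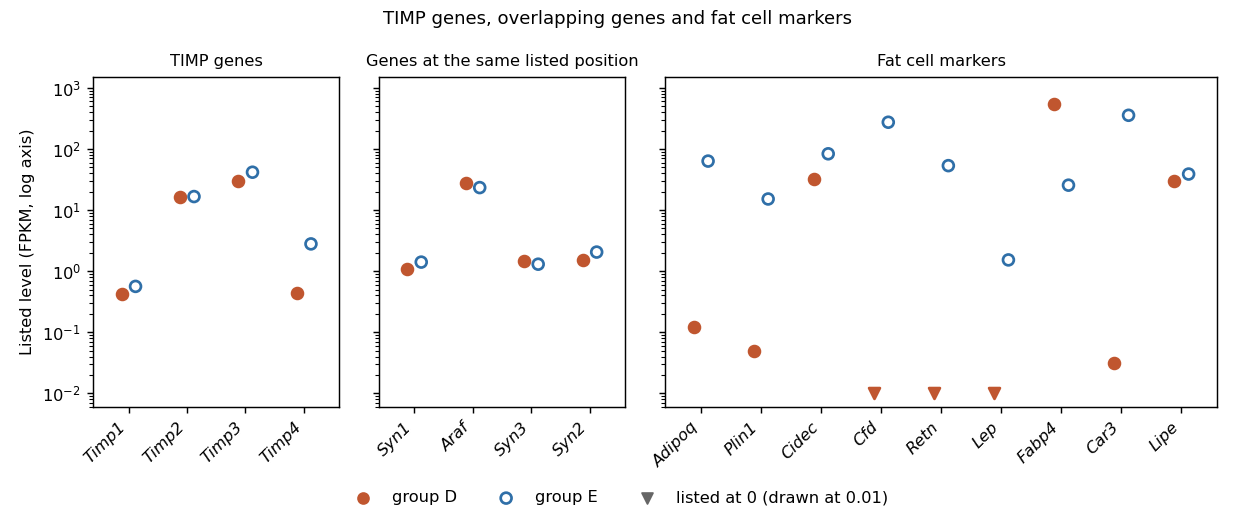
Listed level in FPKM (vertical log axis) of the 4 Timp genes (left), of genes at the same listed position (middle) and of 9 fat cell markers (right), in group D (filled) and group E (open). Triangles are genes listed at 0, which a log axis cannot show. Timp4 and 7 of the 8 fat cell markers other than Fabp4 stand visibly higher in group E, whereas Syn2 differs little.

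Gelatinases digest basement membrane collagen. Mmp2, the gelatinase of fibroblasts, was at 23.9 FPKM in D against 24.2 FPKM in E, and its log2 change was 0.02. Mmp9, the gelatinase of neutrophils and macrophages, was at 1.29 FPKM and 1.07 FPKM (-0.27). Mmp2 stood far above Mmp9 in both groups. The 10 fibroblast markers had a sum of 347 FPKM in D against 365 FPKM in E and of these only Pi16 lay past 2-fold, higher in group E.

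Stromelysins cut many matrix proteins and activate other MMPs. Mmp10 was at 26.4 FPKM in D against 32.5 FPKM in E (log2 change 0.30). Its close relative Mmp3 was listed at 0.257 FPKM and 0.375 FPKM, and Mmp11 at 0.761 FPKM and 0.745 FPKM. Mmp10 was therefore the one abundant stromelysin. Among the collagenases, Mmp13 was at 3.19 FPKM in D against 1.93 FPKM in E (-0.72), the lowest log2 change of the 37 genes but within 2-fold. It lay past 2-fold only after scaling to equal sums, where the background was 4.88%. Mmp8, the collagenase of neutrophils, was at 0.109 FPKM and 0.266 FPKM. Mmp1a was listed at 0 and 0.0598 FPKM, and Mmp1b at 0 in both groups.

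Neutrophil markers are given beside Mmp8 and Mmp9. Of 10 listed neutrophil markers, 3 met the minimum. S100a8 was at 1.60 FPKM in D against 4.94 FPKM in E and S100a9 at 0.743 FPKM and 2.19 FPKM, both past 2-fold. Retnlg was at 10.4 FPKM and 6.77 FPKM. The 10 markers summed to 14.3 FPKM in D against 15.8 FPKM in E, and Camp was listed at 0 in both groups, Elane at 0 in group D and Ngp at 0 in group E. Their part in the Mmp8 and Mmp9 values was not tested. For macrophages, none of 10 markers lay past 2-fold, with 3 log2 changes above 0, 7 below 0 and a median of -0.07. Their sum was 230 FPKM in D against 186 FPKM in E, a difference that lay in Lyz2, at 154 FPKM and 109 FPKM. The largest change was that of Cd68, at 2.05 FPKM and 4.03 FPKM (0.97). Mmp12, the elastase of macrophages, was at 0.0360 FPKM and 0.0637 FPKM, a ratio that 3 and 4 fragments would give.

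Membrane-anchored MMPs act at the cell surface. Mmp14, which activates MMP2, was at 14.7 FPKM in D against 13.5 FPKM in E (log2 change -0.12). Mmp15 was at 5.88 FPKM and 5.41 FPKM (-0.12). The log2 changes of Mmp17 and Mmp25 were 0.24 and 0.27, and Mmp16 and Mmp24 stayed below 1 FPKM. None of the 4 above the minimum lay past 2-fold. Among the remaining MMPs, Mmp19 was at 2.32 FPKM in D against 3.33 FPKM in E (0.52). Mmp28 (epilysin), an MMP of epithelia, was at 1.60 FPKM and 2.30 FPKM (0.52). Mmp23 was at 1.10 FPKM and 1.15 FPKM, and Mmp12, Mmp20, Mmp21 and Mmp27 were at most 0.459 FPKM. The listed position of Mmp19 overlaps that of Tmem198b, which was at 2.49 FPKM and 1.28 FPKM.

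Of the Mmp genes, 9 lie in a cluster on chromosome 9, from 7272514 to 7674968 as listed, a stretch of 402 kb. Only Mmp10 and Mmp13 of these 9 reached 1 FPKM, and their log2 changes had opposite signs as listed, although that of Mmp10 was also below 0 (-0.05) after scaling to equal sums. AP-1, a transcription factor of the Fos and Jun proteins, is known to bind the promoters of several genes of this cluster. Of 83 genes, 52 were matched by symbol to a RefSeq promoter in GRCm38.p6, from 250 bases before to 50 bases after the start. The others were not searched, so counts of these genes cover the matched ones only. The AP-1 motif, written TGACTCA or its reverse TGAGTCA (searched on both strands), was found in 6 of the 9 cluster genes, in 3 of the 43 other genes (6.98%) and in 5.95% of all 27025 genes with a promoter. The TATA box motif, written TATAAA and searched on the strand of the gene, was found in 7 of the 9, in 4 of the 43 (9.30%) and in 9.77% of all genes. The motifs do not overlap. Mmp10 and Mmp13, which reached 1 FPKM, can be read here beside the low genes Mmp3, Mmp1a and Mmp8. The 150 bases before the start of these 5 cluster genes are shown, with both motifs in capitals.
Mmp10, chr9:7502192-7502341, strand +: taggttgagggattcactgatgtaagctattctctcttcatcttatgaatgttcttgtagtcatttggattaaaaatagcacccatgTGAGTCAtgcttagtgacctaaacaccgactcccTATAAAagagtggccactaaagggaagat
Mmp13, chr9:7272364-7272513, strand +: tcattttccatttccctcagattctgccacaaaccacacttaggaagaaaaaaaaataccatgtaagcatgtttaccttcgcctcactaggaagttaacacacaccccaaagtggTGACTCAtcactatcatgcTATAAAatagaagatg
Mmp3, chr9:7445672-7445821, strand +: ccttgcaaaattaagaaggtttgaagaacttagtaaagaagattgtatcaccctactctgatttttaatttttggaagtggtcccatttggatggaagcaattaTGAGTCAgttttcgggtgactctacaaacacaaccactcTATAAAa
Mmp1a, chr9:7463991-7464140, strand +: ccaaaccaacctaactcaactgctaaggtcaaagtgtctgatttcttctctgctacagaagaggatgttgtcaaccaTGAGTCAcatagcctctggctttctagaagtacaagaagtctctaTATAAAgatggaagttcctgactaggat
Mmp8, chr9:7558279-7558428, strand +: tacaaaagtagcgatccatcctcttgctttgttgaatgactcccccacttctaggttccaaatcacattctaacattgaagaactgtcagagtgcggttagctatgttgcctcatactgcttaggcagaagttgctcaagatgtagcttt
In Mmp10 the AP-1 motif began 63 bases and the TATA box 29 bases before the start. In Mmp1a they began 73 and 28 bases before it, in Mmp3 46 and 7 bases, and in Mmp13 35 and 16 bases. The TATA box motif began 49 bases before the start in Mmp1b, 58 bases before it in Mmp20 and 4 bases after it in Mmp12. Its distance from the start thus varied between the genes. Both motifs were thus present in Mmp10 at 26.4 FPKM and in Mmp3 and Mmp1a at under 1 FPKM, so these letters do not order the genes by level. In Mmp8 neither was found in this window. A match is a description of the sequence and not a site shown to be bound.

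**Figure D4:**
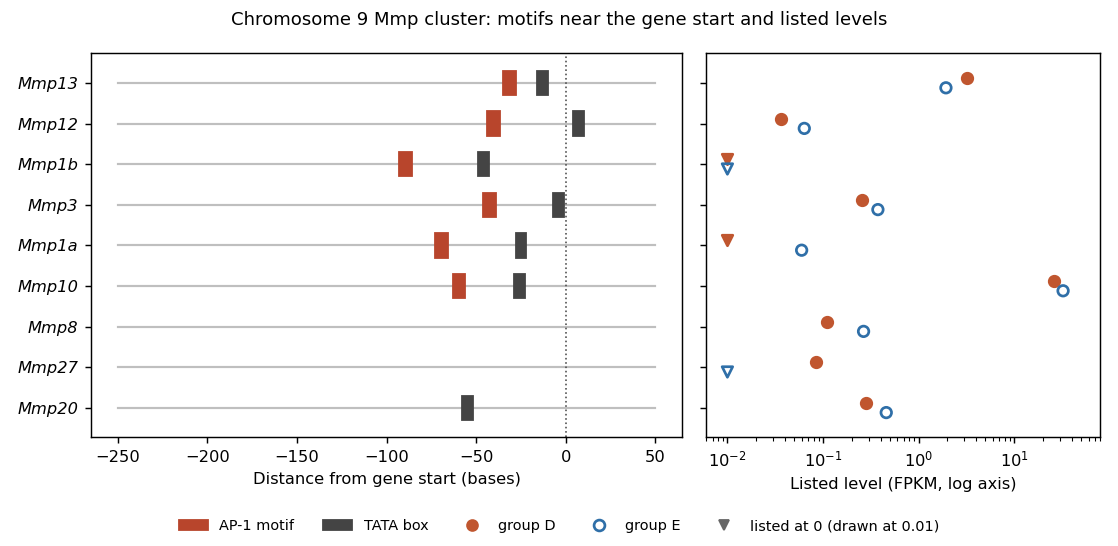
Positions of the AP-1 motif and the TATA box from 250 bases before to 50 bases after the start of the 9 cluster genes (left, any RefSeq start site), and listed level in FPKM on a log axis in group D (filled) and group E (open, right). Triangles are genes listed at 0. Genes with both motifs span the full range from Mmp1b, listed at 0, to Mmp10.

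For contrast, the same stretch before Adam10 and Timp4, the most abundant gene and the one past 2-fold, holds neither motif.
Adam10, chr9:70678832-70678981, strand +: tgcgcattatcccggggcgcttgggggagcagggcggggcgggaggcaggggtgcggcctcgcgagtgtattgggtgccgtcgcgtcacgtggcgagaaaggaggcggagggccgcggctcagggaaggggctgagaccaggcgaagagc
Timp4, chr6:115252206-115252355, strand -: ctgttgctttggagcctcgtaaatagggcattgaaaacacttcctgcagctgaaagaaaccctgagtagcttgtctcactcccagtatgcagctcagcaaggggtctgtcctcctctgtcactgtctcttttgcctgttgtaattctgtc

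Among the ADAMs, Adam10 was the most abundant, at 59.6 FPKM in D against 62.4 FPKM in E (log2 change 0.07). Adam10 sheds Notch, E-cadherin and EGF family ligands and is needed for the intestinal crypt. Adam17, which releases TNF and other ligands, was at 10.9 FPKM and 11.0 FPKM (0.02). Its listed position overlaps that of Iah1, at 18.0 FPKM and 15.1 FPKM. Adam9 was at 17.9 FPKM and 16.6 FPKM (-0.10), Adam19 at 8.74 FPKM and 7.58 FPKM (-0.21) and Adam15 at 6.75 FPKM and 7.52 FPKM (0.16). These 5 genes differed by less than 1.2-fold. Adam8, of leukocytes, was at 1.57 FPKM and 1.23 FPKM (-0.36). Adam12, Adam33 and Adam28 stayed under 1 FPKM in both groups. The proteins of Adam22, Adam23 and Adam11 lack an active protease and act in adhesion in the nervous system. Adam22 and Adam23 had log2 changes of -0.12 and -0.16, and Adam11 was under 1 FPKM.

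Most other ADAM genes belong to testis and sperm. Of 21 such genes listed, 10 were at 0 in both groups, 3 were at 0 in group E only (Adam3, Adam30 and Adam6b) and 19 were under 1 FPKM in both. The exceptions were Adam4 at 4.68 FPKM in D against 3.81 FPKM in E (log2 change -0.30), and Adam1a at 2.12 FPKM and 1.39 FPKM (-0.61). Among all 23358 genes, 5552 were at 0 in both groups, 708 at 0 in group E only and 10373 under 1 FPKM in both. On chromosome 8 the contrast between neighbours was wide. Adam18, Adam3, Adam5 and Adam32 lie beside Adam9 within 415 kb, and none of the 4 exceeded 0.115 FPKM where Adam9 was at 17.9 FPKM and 16.6 FPKM. Adam7 and Adam5 were more than 2-fold higher in group E and Adam2 more than 2-fold lower, but their ratios are those of 1 and 2, 3 and 5, and 3 and 1 fragments.

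Of the ADAMTS enzymes that cut proteoglycans such as versican and aggrecan, the 4 above the minimum differed in both directions within 2-fold. Adamts1 was at 7.95 FPKM in D against 5.53 FPKM in E (log2 change -0.52). Adamts9 was at 2.70 FPKM and 3.88 FPKM (0.52), of the same size and opposite sign as listed. After scaling to equal sums the log2 changes were -0.87 for Adamts1 and 0.18 for Adamts9. Adamts15 was at 4.13 FPKM and 4.34 FPKM (0.07), and its neighbour Adamts8, on chromosome 9 within 63.7 kb, at 1.31 FPKM and 0.854 FPKM (-0.62). Adamts5, next to Adamts1 on chromosome 16, was at 0.712 FPKM and 0.843 FPKM. Adamts4 was at 0.765 FPKM and 0.344 FPKM, a 2.23-fold difference below the minimum. Adamts20, also below it, was at 0.0241 FPKM and 0.0920 FPKM, a 3.82-fold difference. Of the 4 above the minimum, none lay past 2-fold.

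Adamts2, which trims the ends of fibrillar procollagens, was at 2.02 FPKM in D against 2.59 FPKM in E (log2 change 0.36). The other procollagen N-propeptidases Adamts3 and Adamts14 were under 1 FPKM. Adamts10, which acts on microfibrils, was at 4.16 FPKM and 3.56 FPKM (-0.23). Adamts12 was at 1.14 FPKM and 1.43 FPKM (0.32), Adamts17 at 1.04 FPKM and 1.14 FPKM (0.13) and Adamts6 at 1.17 FPKM and 0.892 FPKM (-0.39). None of these 5 genes lay past 2-fold. Adamts13, which cleaves von Willebrand factor and is made mainly in the liver, was at 0.149 FPKM and 0.0991 FPKM. ADAMTS-like proteins carry no protease. Adamtsl5 was the most abundant, at 7.19 FPKM and 6.38 FPKM (-0.17), within a listed position that it shares with many genes, and the log2 changes of Adamtsl4, Adamtsl3 and Adamtsl2 were 0.15, -0.03 and 0.05.

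Below the minimum, 29 genes had both values above 0, and 8 of them differed by more than 2-fold, 4 in each direction. Among all genes with a mean under 1 FPKM this share was 28.0%, with 11.1% higher and 16.9% lower. With no minimum, 9 of 66 genes lay past 2-fold, 5 higher and 4 lower, and the background was 8.89%, with 3.86% higher and 5.02% lower. The largest by level was Adamts19, an ADAMTS with no well-known substrate, at 0.979 FPKM in D against 0.364 FPKM in E. Adam33 was at 0.496 FPKM and 0.202 FPKM. The 8 genes were Adamts19, Adamts4, Adam33, Mmp8, Adam5, Adam2, Adamts20 and Adam7. Of 28 genes above 0 and under 1 FPKM in both groups, 13 had a ratio that whole fragments up to 12 would give. Adamts19, Adamts4, Adam33 and Adamts20 did not. In total 11 of the 83 genes were listed at 0 in both groups, 2 in group D only (Mmp1a and Adamts16) and 4 in group E only (Adam3, Adam30, Adam6b and Mmp27). Among all 23358 genes these counts were 5552, 419 and 708. No gene with at least 1 FPKM in one group was listed at 0 in the other.

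Known partners and substrates of these proteases were compared in the same way. Among 14 other inhibitors and activators, 10 met the minimum and none lay past 2-fold, with a median log2 change of 0.08. Bsg (basigin, which induces MMPs) was at 265 FPKM in D against 330 FPKM in E. Of 7 partners of Adam10 and Adam17 above the minimum, none lay past 2-fold and the median was -0.11. Tspan15, a tetraspanin that directs ADAM10, was at 31.4 FPKM and 21.8 FPKM. Of 6 ADAMTS substrates, none lay past 2-fold. The median was 0.07, and Col3a1 (type III collagen) was at 74.7 FPKM and 80.1 FPKM. Of 11 other gut metalloproteinases, 9 had a log2 change below 0, as had 6195 of all 12694 genes, and none lay past 2-fold. The median was -0.17. Anpep, an aminopeptidase of the brush border and 1 of the 2 genes above 0, was at 2465 FPKM and 2756 FPKM. The counts past 2-fold stand beside the background of 2.90%.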

How the data were processed

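RNA-seq of ileum was analysed for groups D and E, with 1 listed value per gene in each. The authors aligned reads with TopHat2 2.0.12 on a Bowtie2 2.2.3 index, and the submitters' processing notes also name DESeq 1.18.0. The deposited table gives FPKM per group in the layout of Cuffdiff, and neither the way 2 libraries became 1 value nor the genome build was stated in the sources used here. Depth per library was not used. Its fold changes, P-values and q-values, and a second table of KEGG pathways, hold the authors' own comparisons and were not used. All 83 genes overlap the gene of the same name in GRCm38.p6, and 1 was added to each start, since listed starts count from 0.

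No test was run, because 1 value per group has no replicate error. Genes named are the 12 most abundant, those past 2-fold, the 5 largest increases and decreases, all Timp genes, Adam10, Adam17, genes with 1 FPKM or more against 0, and, in each related list, up to 3 genes past 2-fold or else the most abundant gene. Others were picked after their values were seen. The list of shed substrates is not reported here. Members and lists were chosen with earlier results of these data known. The direction of a change is that of the group columns. Counting was tested on simulated data. Alternatives were other folds, minimums, pseudocounts and scalings. Protein sequences were not analysed here. Python 3.11.15, numpy 2.4.6, pandas 2.3.3 and matplotlib 3.10.9 were used.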

Additional observations from a re-analysis of the deposited data

How the results depend on the processing

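The number of genes past the fold was 1 at 3-fold and with a pseudocount of 0.1 or 1. It was also 1 after upper-quartile scaling, scaling to Actb or subtracting the median change, and in each case the gene was Timp4. The background in these settings lay between 0.961% at 3-fold and 2.87% after subtracting the median change. The number was 4 of 37 at 1.5-fold (background 10.2%), 3 of 48 with a minimum of 0.5 FPKM (3.83%) and 9 of 66 with no minimum (8.89%). With a minimum of 5 FPKM it was 0 of 13 genes, which leave out Timp4 (background 1.63%). Leaving out genes whose listed position overlaps another gene, an alternative chosen after seeing the data, removed Timp4 by construction. It gave 0 of 31 (background 2.89%), with a median log2 change of -0.025. Rescaling both groups to equal sums without short and ribosomal RNA genes lowered every log2 change by 0.35. It gave 2 of 37 genes (background 4.88%), Timp4 higher and Mmp13 lower. The median log2 change was then -0.33, against -0.34 for all genes. The median, 0.019 as reported, was 0.067 with no minimum, 0.010 after centring on the median of all genes, -0.016 with upper-quartile scaling, -0.017 relative to Actb and 0.053 as a mean. With equal sums, 14 of the 37 log2 changes had another sign than as listed (Adam10, Adam15, Adam17, Adamts12, Adamts15, Adamts17, Adamtsl2, Adamtsl4, Mmp2, Mmp10, Mmp17, Mmp23, Mmp25 and Timp2), and of these Mmp2 and Adam17 also did with upper-quartile scaling and relative to Actb. No paired analysis was possible because there is 1 value per group. No replicate could be left out, and the search of protein motifs was not run. Low values rest on few fragments.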

Other observations

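Outside the symbols chosen, 41 genes are annotated with metalloendopeptidase activity in the deposited table, and 32 met the minimum of 1 FPKM. None lay past 2-fold, and their median log2 change was -0.03, from -0.46 to 0.46. The meprins of the brush border were the most abundant of them together with Adamdec1, an ADAM-like gene. Mep1b was listed at 664 FPKM in D against 587 FPKM in E, Mep1a at 238 FPKM and 216 FPKM, and Adamdec1 at 274 FPKM and 220 FPKM. Adamdec1 alone was thus listed at nearly the level of all 83 genes together in group D. Next in level were mitochondrial proteins with this annotation, such as Uqcrc1 at 167 FPKM and 228 FPKM. Mme (neprilysin, which degrades peptides) was at 88.2 FPKM and 67.3 FPKM.

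Markers of smooth muscle and endothelium were mostly listed higher in group E, within 2-fold. Of 8 smooth muscle markers 7 had a log2 change above 0, with a median of 0.32, and of 8 endothelial markers 7 did, with a median of 0.40. Over all 12694 genes, 6499 were above 0 and the median was 0.01. The exceptions among the markers were Actg2 (-0.47) and Esam (-0.38). These signs depend on the scaling too, since equal sums lowered every log2 change by 0.35. The endothelial markers Cdh5, at 6.48 FPKM and 11.3 FPKM, and Emcn, at 5.39 FPKM and 8.43 FPKM, lay past 1.5-fold. Summed levels were 757 FPKM in D against 846 FPKM in E for smooth muscle and 58.0 FPKM against 75.5 FPKM for endothelium. Of 6 mesothelial markers 1 met the minimum, with a log2 change of 0.17.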
